A study of Mus musculus with 4 samples.

Results

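Gm2022 and 7 further genes with predicted-gene symbols, Gm2016, Gm2042, Gm5039, Gm7104, Gm8300, Gm10436 and Gm21319, lie in one stretch of mouse chromosome 12. They were chosen by symbol, as all non-control probes of the array whose gene name was one of these 8, and the symbols were selected on these arrays because the genes rose with Rif1 siRNA, so that rise is given as a description and not as a finding. The 8 genes, of 30199 gene names on the array, were read by 15 of 39429 probes. Gm2016 had 5 probes, Gm8300 had 3 and Gm2022 had 2, whereas each of the other genes had 1, and each probe was a single spot. The files placed 14 of the probes on mm9 chromosome 12 between 88858331 and 89559693, a span of 701 kb, and gave no position for the Gm2016 probe A_55_P2093520.

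RNA was measured in E14tg2a cells, an established mouse embryonic stem (ES) cell line grown without feeder cells in serum medium with leukemia inhibitory factor, on one-colour Agilent arrays, 4 on one slide. One array held untreated cells (listed at 0 h), and one held cells at 72 h after transfection of control siRNA. The other 2 arrays held cells at 48 h and at 72 h after transfection of the siRNAs mRif1#2 and NC#1. Both siRNAs are against Rif1, a regulator of DNA replication timing. No genotype differed between the groups. With 1 array per condition, the differences given here could not be checked in replicates, have no standard error over cultures and were not tested. Both Rif1 siRNA arrays were compared with the same control siRNA array, and no control siRNA array was analysed at 48 h.

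Gm2022, Gm2016, Gm8300, Gm21319, Gm5039 and Gm7104 belong to a family of copies related to eIF1A, the initiation factor that binds the small ribosomal subunit and takes part in scanning for the start codon. Copies of this family are transcribed in the mouse embryo at the 2-cell stage, when the zygotic genome is activated, and in the rare ES cells that enter a state like that stage, the 2C state. Gm2042 and Gm10436 are of another kind: the probes of both also list transcripts of Oog1, oogenesin 1, a leucine-rich repeat protein gene of the PRAME family that is known from oocytes and early embryos.

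The expression level used here is the processed signal of a probe divided by the 75th percentile of the array, which was between 1487 and 1610 intensity units. Well above background by the software's call were 58.8% of spots in untreated and 62.8% in control siRNA cells. With Rif1 siRNA they were 71.5% at 48 h and 74.1% at 72 h. The lowest level so called was 0.0236, 0.0159, 0.0078 and 0.0063 on these arrays, so dim probes were called more readily with Rif1 siRNA. No spot was saturated, and the spots of repeated probes varied by 0.062 to 0.067 (median SD, log2) on one array. The Rif1 level was 5.55 in untreated and 5.42 in control siRNA cells, 2.15 at 48 h and 4.15 at 72 h, so both arrays labelled Rif1 siRNA lay below the control, by 1.34 and 0.39 on the log2 scale. All 8 ES cell markers were well above background on every array, and their summed level, over the brightest probe of each gene, ranged from 222 to 234. Of the markers of other cell types, all 6 primitive endoderm genes were measured, with a summed level of 2.58 in untreated and 1.83 in control siRNA cells, 2.16 at 48 h and 1.56 at 72 h of Rif1 siRNA. The 6 trophoblast genes summed to between 3.92 and 4.44, of which Tfap2c (0.910-fold at 72 h) gave most, and Elf5 was not well above background without Rif1 siRNA. The Elf5 levels with Rif1 siRNA (0.0112 at 48 h, 0.0098 at 72 h) lay below the lowest level so called on either other array. The other trophoblast probes with a value lay between 1.097-fold (Krt7) and 2.11-fold (Cdx2) at 72 h, and the median of the list was 1.26-fold at 72 h and 1.43-fold at 48 h. The 6 fibroblast genes summed to between 3.79 and 4.43, of which Thy1 (1.04-fold at 72 h) gave most. The other fibroblast genes with a value were higher with Rif1 siRNA, Col1a1 by 1.76-fold and Col1a2 by 1.77-fold at 72 h, and the median of the list was 1.40-fold at 72 h and 1.45-fold at 48 h. Postn was not well above background on any array. Of these lists the Cdx2 probe alone was over 2-fold higher at 72 h, and the part of other cell types in the results was not tested.

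The probes are shown first because what they can read depends on their sequence. Over 4 of them one 30-base stretch can be laid side by side, in which capitals mark the bases identical to the first Gm2016 probe, A_55_P2013843. The probes below it are Gm8300 A_55_P2087602, Gm21319 A_55_P2056275 and Gm2016 A_55_P2093519.

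Gm2016 A_55_P2013843: GCTGTTAAGTAAAACTTCATTTGGCATGCG
Gm8300 A_55_P2087602: GCTcTTAAGTAAAACTTCATTTGGCATGaG
Gm21319 A_55_P2056275: GCTGTTAAGTAAAtCTTCATTTGGCATGCa
Gm2016 A_55_P2093519: GCTGTTAAaTAtAACTTCATTTGGCATaCt

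The Gm8300 and Gm21319 stretches each matched 28 of the 30 bases, and the stretch of the other Gm2016 probe matched 26. The longest uninterrupted run shared by the first Gm2016 probe and a Gm8300 probe was 24 bases. Over their whole aligned length of 60 bases, the Gm21319 and Gm8300 probes matched at 53 bases. With a shared word of 16 bases as the criterion, 3 of the 15 probes fell into one group (Gm2016 A_55_P2013843, Gm8300 A_55_P2087602 and Gm8300 A_55_P2077530), and the other 12 each stood alone.

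In a second pair, the Gm2016 probe A_55_P2055168 is set beside the probe A_55_P2178064, which is no member and whose transcript LOC101056486 is described in the array files as eIF1A-like. Here lower case marks the 50 of 57 aligned bases that are identical, and capitals mark the bases that differ or lie outside the alignment.

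Gm2016 A_55_P2055168: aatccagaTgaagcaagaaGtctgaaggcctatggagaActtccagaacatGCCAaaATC
LOC101056486 A_55_P2178064: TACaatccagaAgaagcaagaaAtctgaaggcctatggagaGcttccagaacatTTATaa

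The Gm2016 probe of this pair also lists transcripts of Gm8300, Gm4027 and Gm5662, so a signal from it cannot be given to Gm2016 alone. In all, 8 of the 15 probes list a RefSeq transcript of another gene besides that of their own. The Gm2022 probe A_66_P106503 also lists Gm2016, the Gm2022 probe A_55_P1983380 also lists Gm5039, the Gm7104 probe also lists Gm1995 and the Gm5039 probe also lists Gm10264. RefSeq of GRCm38.p6 holds 7 of the 8 genes under the same symbol and has Gm10436 as Pramel51. It calls Gm5039 and Gm7104 transcribed pseudogenes and the rest protein coding. The transcripts of 13 of the 15 probes were matched there.

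The eIF1A-like genes were measured well above background in untreated cells, were higher at every probe in control siRNA cells, and were far higher on both Rif1 siRNA arrays. The errors given are those the scanner software assigned to the spot, not errors between cultures. For Gm2022, the probe A_66_P106503 read 0.450 ± 0.0453 without treatment and 0.824 ± 0.0825 under control siRNA. Under Rif1 siRNA it read 17.3 ± 1.73 at 48 h and 18.6 ± 1.86 at 72 h. Its second probe, A_55_P1983380, stood at 1.26 ± 0.126, 2.24 ± 0.224, 40.8 ± 4.07 and 46.8 ± 4.67 on the same arrays. Both probes thus read higher on either Rif1 siRNA array than on the other arrays, as the choice of the genes implies, and the 72 h level exceeded that of control siRNA by 22.6-fold and 20.8-fold.

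Gm2016 was read by 5 probes, all of which were higher on both Rif1 siRNA arrays. The probe A_55_P2055168, the one set beside the eIF1A-like transcript, had levels of 3.78 (untreated), 5.41 (control siRNA), 59.4 (Rif1 siRNA, 48 h) and 61.5 (Rif1 siRNA, 72 h), the order used for all series of values below. Its 72 h level was 11.4-fold that of control siRNA, the smallest fold among the 13 probes of the 6 eIF1A-like genes. The probe A_55_P2013843 read 0.651, 1.16, 23.6 and 25.6, a 22.0-fold difference at 72 h. The probe A_55_P2174884 read 0.0861, 0.164, 3.71 and 4.04, a 24.7-fold difference. All 3 of these lie within 1 kb of each other on the array's map. The other 2 carry a predicted transcript of the same symbol, and one of them is placed by the files elsewhere in the cluster. That probe, A_55_P2093519, read 1.26, 2.28 and 37.9 on the first 3 arrays, and its 72 h level, 5.32 on the log2 scale, was 17.5-fold that of control siRNA. The unplaced probe, A_55_P2093520, read 0.468, 0.849, 16.7 and 18.4 (21.6-fold).

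The 3 Gm8300 probes lie at the start of the cluster. The level of A_55_P2087602 was 0.375 untreated, 0.702 with control siRNA, 15.5 at 48 h and 16.5 at 72 h (23.6-fold over control siRNA). For A_55_P2077530, which overlaps it on the map, the levels were 0.115, 0.237, 5.31 and 6.08 (25.6-fold). For A_55_P2055179 they were 0.179, 0.340, 7.92 and 8.91 (26.2-fold). The folds of the 3 probes differed by less than the error of a single fold, which was 14.1% to 14.4% for these and the other measured probes when the errors of both spots were combined.

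Gm21319 had levels of 0.462, 0.911, 19.2 and 20.1, a 22.0-fold difference between Rif1 and control siRNA at 72 h. The pseudogenes rose as well. Gm7104 read 0.216, 0.2996, 6.83 and 8.51, and its difference at 72 h was 28.4-fold, within the errors of the next highest fold (26.2). Gm5039, whose probe lies at the far end of the cluster, read 0.370, 0.410, 5.44 and 5.86 (14.3-fold).

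**Figure D1:**
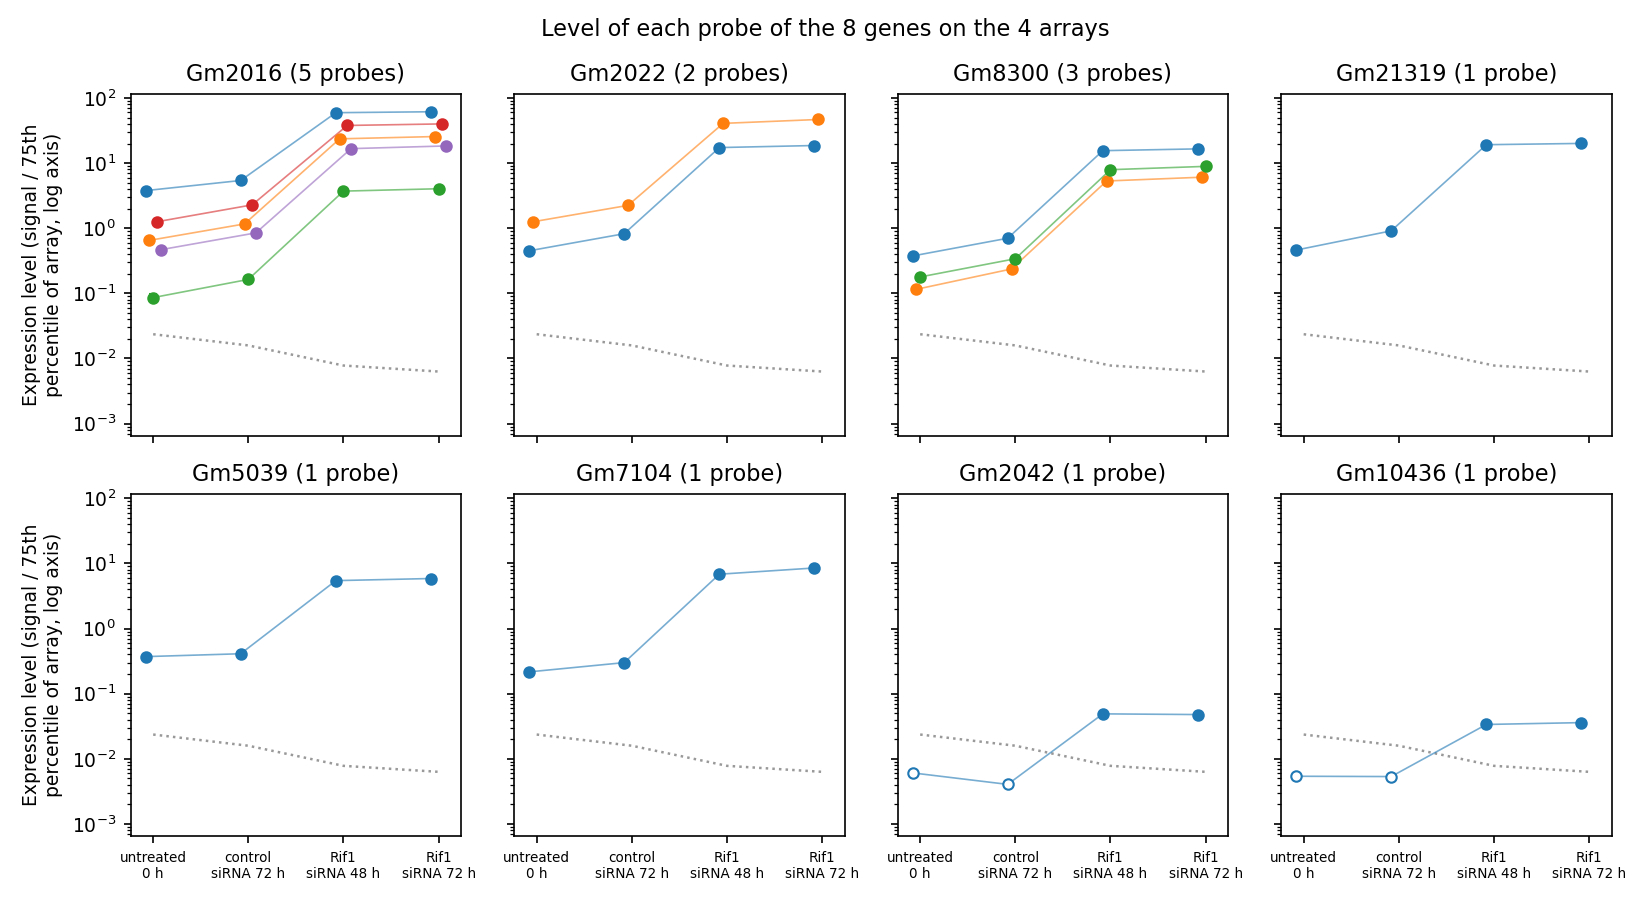
Expression level (processed signal over the 75th percentile of the array, log axis) of every probe of the 8 genes on the 4 arrays. Each colour is one probe of the gene, filled points with error bars (scanner software error, often smaller than the point) are well above background, open points are not, and the dotted line is the lowest level well above background on each array. All probes are higher on both Rif1 siRNA arrays than on both others, and Gm2042 and Gm10436 are open without Rif1 siRNA.

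At 72 h, Rif1 siRNA exceeded control siRNA by over 2-fold at all 15 probes, whereas 2.82% of the 27780 probes that passed the filter on low values were. The median over the 15 probes was 4.46 on the log2 scale (22.0-fold), beside -0.05 over all probes that passed. At 48 h the count was again 15 of 15, with a background of 3.16%, a median of 4.34 (20.3-fold) and a range from 2.12-fold to 23.3-fold. All 15 probes passed the filter, those of Gm2042 and Gm10436 only through the Rif1 siRNA arrays, where they are high. Since the genes were selected on this contrast, nothing is read from their share. More cells with these transcripts and more transcript per cell cannot be told apart in RNA from whole cultures.

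Among the 13 probes of the eIF1A-like genes, the folds at 72 h ranged from 11.4 to 28.4, with a median of 22.0 and an SD over probes of 0.37 (log2). In the order of folds, 10 of the 13 probes were at 20-fold or more. The 3 below were Gm2016 A_55_P2055168 (11.4-fold), Gm5039 (14.3-fold) and Gm2016 A_55_P2093519 (17.5-fold). No neighbours in this order, of 12 pairs, were farther apart than the sum of their spot errors, while its lowest (11.4 ± 1.61) and highest fold (28.4 ± 4.04) were. Spot errors do not cover the spread between cultures, which 1 array per condition does not show. Levels were not ranked between probes, because the signal of a probe also depends on its sequence.

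**Figure D2:**
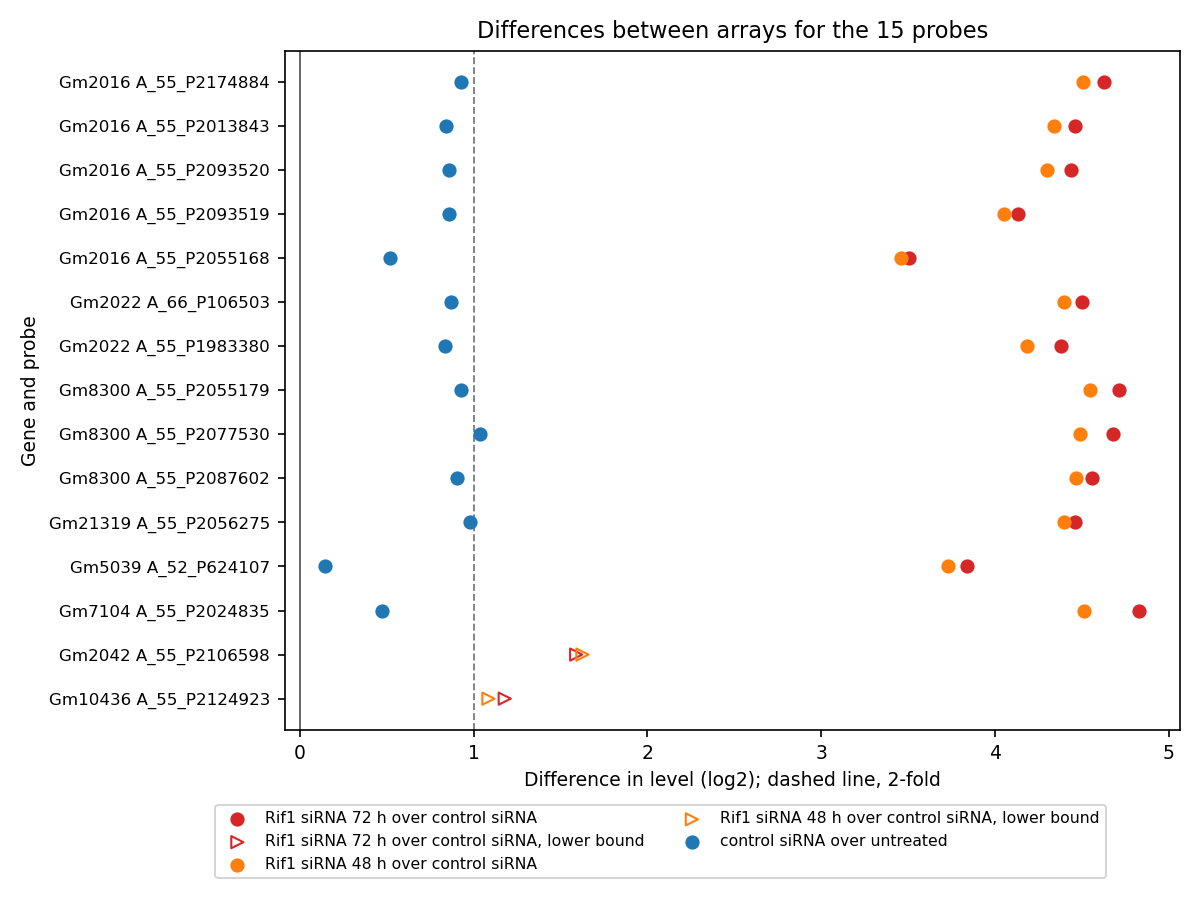
Log2 difference in expression level between arrays for the 15 probes, with one colour for each comparison. Filled circles are measured on both arrays, open triangles are lower bounds, and the dashed line marks 2-fold. The 13 measured probes lie between 3.46 and 4.83 for both Rif1 siRNA comparisons, and between 0.15 and 1.04 for control siRNA over untreated cells.

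The members were also higher with control siRNA than in untreated cells, by less. All 13 probes with a value in this comparison lay above 0, with a median of 0.86 on the log2 scale (1.82-fold), beside a median close to 0 over all probes that passed (-0.002). Only the Gm8300 probe A_55_P2077530 was over 2-fold (2.05-fold), that is 1 of 15, against a background of 0.583%. The differences were smallest for Gm5039 (1.11-fold), Gm7104 (1.39-fold) and Gm2016 A_55_P2055168 (1.43-fold), and the other 10 probes lay between 1.79-fold and 2.05-fold. Over all probes measured on both arrays the SD of this difference was 0.26 (log2). The rise was not particular to the members. Other genes known from the 2C state, listed below, had a median of 1.97-fold, with 8 of 25 probes over 2-fold higher. None of their probes was over 2-fold lower, and their lowest value was 0.788-fold. In the same comparison all 8 primitive endoderm probes that passed the filter were lower, with a median of 0.626-fold, and their part in the result was not tested. The control siRNA cells were collected at 72 h. The untreated cells are listed at 0 h, though their sample title gives no time. Transfection and time in culture therefore cannot be told apart here. Against untreated cells, the 72 h Rif1 siRNA levels of the 13 probes were 15.8-fold to 52.7-fold higher.

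From 48 to 72 h of Rif1 siRNA the members changed little. No probe was over 2-fold higher, with a background of 0.49%. The 13 probes of the eIF1A-like genes were all slightly higher at 72 h, by 1.03-fold to 1.25-fold, with Gm7104 at the upper end (6.83 to 8.51). All of these differences but that of Gm7104 were below the SD of 0.28 (log2) that probes showed between the Rif1 siRNA arrays, and that of Gm7104 was 0.32. On the same arrays the Rif1 level went from 2.15 to 4.15.

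Gm2042 and Gm10436 were measured with less certainty, and the size of their rise is known only as a lower bound. The Gm2042 probe had levels of 0.0061 in untreated and 0.0040 in control siRNA cells, neither well above background, and of 0.049 ± 0.0053 at 48 h and 0.048 ± 0.0050 at 72 h, both well above it. The Gm10436 probe read 0.0054 and 0.0053 without Rif1 siRNA, again not well above background, and 0.034 ± 0.0038 at 48 h and 0.036 ± 0.0039 at 72 h. The transcripts were therefore measured only with Rif1 siRNA, with no measured level on the other arrays. For the control side, the smallest level that still counted as well above background there, 0.0159, took its place, which gives a lower bound. Gm2042 was at least 3.01-fold higher at 72 h and at least 3.09-fold higher at 48 h than with control siRNA. Gm10436 was at least 2.26-fold higher at 72 h and at least 2.12-fold higher at 48 h. Against untreated cells the bounds at 72 h were 2.03-fold for Gm2042 and 1.52-fold for Gm10436. With another background correction (normexp) both stayed above the control but fell under 2-fold, at 0.57 and 0.44 on the log2 scale at 72 h. Each probe also lists the transcripts of the other gene and of Oog1, so which of these the signal comes from was not tested.

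Apart from the 15 probes, 6 probes of the array share a word of 16 bases with them, and 4 of the 6 were over 2-fold higher at 72 h, beside 2.82% of all probes. BB287469, a protein coding gene inside the cluster, shares words with a Gm2016 and a Gm8300 probe. Its levels were 1.15, 1.90, 38.4 and 43.7 (23.0-fold). An unnamed probe that shares words with Gm2022, A_55_P2074435, read 0.843, 1.56, 29.9 and 34.3 (22.0-fold). An unnamed probe that shares words with Gm2016, A_55_P2074437, read 0.0298, 0.0700, 1.40 and 1.504 (21.5-fold). The eIF1A-like transcript LOC101056486 read 0.799, 1.24, 20.3 and 21.4 (17.2-fold). Of the 2 that were not higher, 9330199F22Rik on chromosome 13 shares words only with the opposite strand and stood at 1.04-fold. Gm13089 on chromosome 4 shares words with Gm2042 and stood at 0.627-fold, with a 72 h level of 0.0137 against 0.0218 with control siRNA.

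The probes that lie between the members on chromosome 12 did not all rise with them. Of 20 such probes 18 passed the filter, and 4 were over 2-fold higher at 72 h. These 4 were the 2 probes of BB287469 (23.0-fold and 25.2-fold) and the 2 unnamed probes above. Of the other 14, 13 had a value, and these lay between 0.737-fold and 1.26-fold. Gm16381, for one, had levels of 9.62, 9.41, 8.50 and 8.08 at its brighter probe (0.859-fold), and Gm8587 read 0.703, 0.712, 0.567 and 0.644 (0.904-fold). Gm2099 was bright on every array, at 44.7, 48.7, 42.02 and 45.0 (0.925-fold).

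Outside the cluster, no probe within 1 Mb had a value over 2-fold at 72 h, among 32 that passed before it and 4 that passed after it, a share near the 2.82% of all probes. Some of these values are lower bounds, the highest being that of Gm6566 (at least 1.89-fold), and a few probes had no value. The medians were 0.935-fold and 0.933-fold. Snw1, a splicing factor gene and the nearest named gene before the cluster, had levels of 4.27, 4.41, 4.36 and 4.53 (1.03-fold). Adck1, a kinase-like mitochondrial gene and the nearest well-measured named gene after it, had levels of 1.53, 1.62, 1.71 and 1.48 (0.914-fold). At 48 h 1 probe before the cluster passed 2-fold, Gm6772 (2.01-fold), whose levels of 0.0254, 0.0208, 0.0418 and 0.0398 were low throughout.

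**Figure D3:**
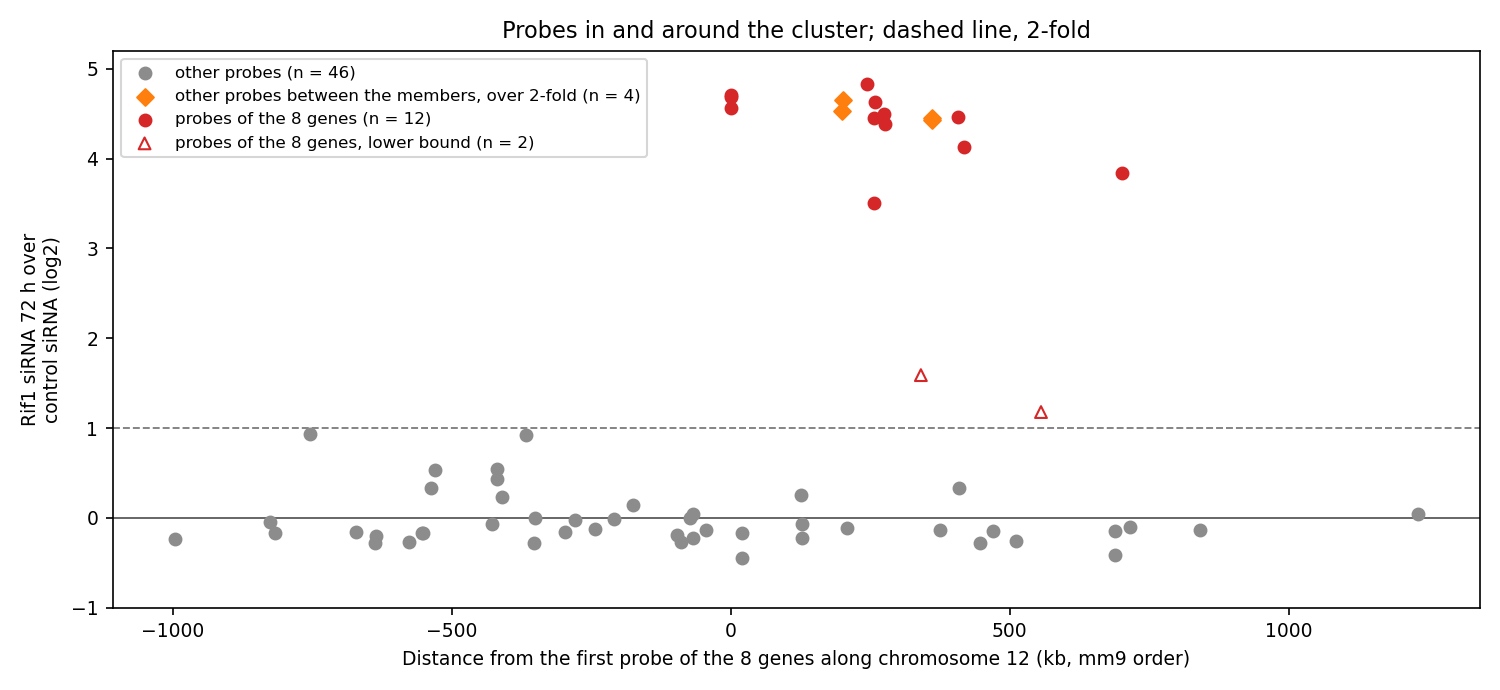
Log2 difference at 72 h (Rif1 over control siRNA) of every probe with a value that passed the filter in the cluster or within 1 Mb of it, by its distance in kb from the first probe of the 8 genes. Red points are measured probes of the 8 genes, open triangles are their lower bounds, orange diamonds are the 4 other probes between them over 2-fold, and grey points are the rest, 2-fold being the dashed line. Some grey points are lower bounds too, and all lie below the dashed line on both sides of the cluster and also between its members.

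The genes named for the initiation factors themselves had values close to 1-fold at 72 h. The 5 genes named for eIF1 or eIF1A (Eif1, Eif1a, Eif1ad, Eif1ax and Eif1b) were read by 7 probes. Eif1ad was included by its name alone. None was over 2-fold higher or lower in any of the 4 comparisons, beside 2.82% of all probes over 2-fold higher at 72 h. The median at 72 h was -0.07 on the log2 scale. Eif1ax, the X-linked gene of eIF1A itself, had levels of 32.5, 33.0, 26.6 and 28.6 (0.869-fold at 72 h). Eif1a read 14.7, 13.3, 12.9 and 12.2 (0.914-fold). The values were similar for the genes of the other factors that load on the small subunit, the subunits of eIF2 and eIF3, Eif5, Eif5b and Abce1: of 19 genes on the array with 29 probes that passed, none had a value over 2-fold in either direction at 72 h, a share near that of all probes, and the median was -0.11. The Eif5b probe was not well above background with control siRNA and gave no fold. The values of the others ranged from 0.790-fold (Eif3k) to 1.31-fold (Eif5).

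Of 18 other genes known from the 2C state, 22 of 25 probes were over 2-fold higher at 72 h, again beside 2.82% of all probes, with a median of 4.32 (20.01-fold). This list, like the members, was put together with these results known. Their measured folds ran from 1.09 to 34.8, and so reached below and above those of the members. Zscan4c, a zinc finger gene that gives the 2C state its usual marker, was 19.0-fold to 24.04-fold higher over 3 probes, Tcstv1 was 25.0-fold, Tmem92 was 23.1-fold and Tdpoz4 was at least 18.5-fold and 23.0-fold higher. Tcstv3 was higher by 34.8-fold, Usp17le by 9.93-fold, Usp17ld by 9.21-fold and Spz1 by at least 2.45-fold. Dux, which encodes a double homeobox activator of 2C genes, had a probe, A_55_P1983444, that did not exceed background without Rif1 siRNA and was at least 2.38-fold higher, with levels of 0.0188, 0.0148, 0.0435 and 0.0377. The 3 probes under 2-fold were 1 each of Dux, Usp17la and Zfp352, although Usp17la (24.6-fold) and Zfp352 (at least 20.4-fold) each had another probe that was high. Of 10 further symbols listed for the families of the members, none was on the array under that name.

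**Figure D4:**
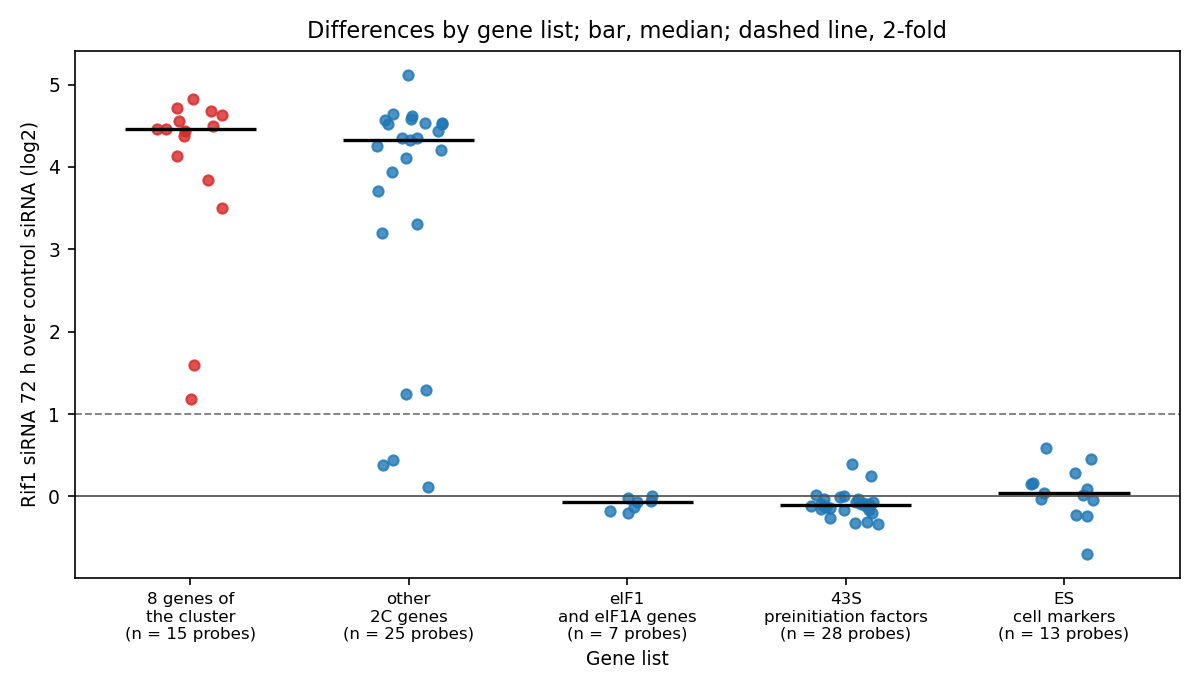
Log2 difference at 72 h (Rif1 over control siRNA) of every probe that passed the filter and had a value, for the 8 genes of the cluster and 4 gene lists. Each point is one probe (lower bounds included at their bound), the bar is the median, and the dashed line is 2-fold. Points of the cluster and of the other 2C genes lie mostly above 3, and those of the initiation factor lists and of the ES cell markers all lie below 1.

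The gene most like the members over the 4 arrays was looked for by the root mean square distance between its log2 differences from untreated cells and the median of the 13 measured member probes, which was 0.86 for control siRNA, 5.18 at 48 h and 5.30 at 72 h. Among 17492 other gene names with a probe well above background on all 4 arrays, the closest was BB713741, a sequence read from a 2-cell library, at a distance of 0.026 (log2), with levels of 0.663, 1.22, 23.5 and 25.8. The unnamed probes A_55_P2143081 (0.031), A_55_P2074435 (0.036) and A_55_P2007495 (0.076) were among the 5 closest too, and of these A_55_P2074435 lies in the cluster. The remaining one was Gm13043 on chromosome 4 (0.048), which is also on the 2C list, with levels of 0.286, 0.525, 10.5 and 10.7. The members themselves lay at a median distance of 0.209 from their own median, and at up to 1.15, so these 5 lay closer to it than the median member did. The 5 gene names were chosen for this likeness, and it rests on 4 arrays.

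The RefSeq table of GRCm38.p6 holds the promoters of 2 of the 8 genes, Gm21319 and Gm2042, and that of BB287469 among the genes that share words. The 250 bases before the start are shown for Gm21319 (chr12:87775756-87776005, minus strand) and BB287469 (chr12:87816327-87816576, plus strand). Capitals mark TGATTNAAT, the first 9 letters of the motif of double homeobox factors such as Dux, where N is any base. The motif goes on beyond these letters, and the rest of it was not searched for. In both sequences ta follows the capitals, and a match to the whole motif is not shown.

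Gm21319: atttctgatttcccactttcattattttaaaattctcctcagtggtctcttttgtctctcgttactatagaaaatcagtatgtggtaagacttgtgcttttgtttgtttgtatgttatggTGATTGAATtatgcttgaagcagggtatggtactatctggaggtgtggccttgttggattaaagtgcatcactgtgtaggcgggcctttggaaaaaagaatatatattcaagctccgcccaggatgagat
BB287469: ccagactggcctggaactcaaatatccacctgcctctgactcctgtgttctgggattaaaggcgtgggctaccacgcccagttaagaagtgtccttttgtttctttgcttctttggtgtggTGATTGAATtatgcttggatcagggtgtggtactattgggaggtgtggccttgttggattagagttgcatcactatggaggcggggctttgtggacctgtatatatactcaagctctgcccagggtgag

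The match began 130 bases before the start in Gm21319 and 129 bases before it in BB287469, on the coding strand in both. Over 300 bases, 250 before and 50 after the start, and on both strands, TGATTNAAT was found in 236 of 32851 mouse promoters of the same table, or 0.718%. The promoter of Gm2042 held no match. Laid side by side without gaps, the promoters of Gm21319 and BB287469 had identical bases at 141 of 298 positions (47.3%). That of Gm2042 matched Gm21319 at 31.6% and BB287469 at 30.8%. These shares cover the whole overlap and do not show how alike the stretches around the capitals are. Whether the 2 matches of TGATTNAAT are copies of one sequence was not tested. The letters TGCACAC, a motif bound by Zscan4, were in 4.4% of all promoters and in none of these 3. The exact TATA box letters TATAAA (13.6% of all) were in none of them either. Other forms of the TATA box were not searched for, and both sequences shown hold tatatat near their end. The letters CCAAT (37.4% of all) were found in BB287469 only. The array placed the Gm21319 probe in ascending order on mm9, after the probes of BB287469 and Gm2042, whereas the promoter table has Gm21319 on the minus strand of the later build and before both of these genes. Whether its probe and its promoter belong to the same copy was not tested. No binding was measured in these files.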

How the data were processed

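Gene expression was measured in 4 samples, 1 per condition, with Agilent one-colour mouse arrays. Total RNA was labelled with Cy3, and the authors read the slide with Agilent Feature Extraction 11.5.1.1 (default settings per the study's methods; probe positions on mm9 per the file headers). The deposited intensity per spot is the processed signal, after background subtraction by the software, and the deposited table of the whole series holds a linear ratio, which is the same signal divided by the 75th percentile of its array (medians of 0.0619, 0.0601, 0.0637 and 0.0634).

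Here the processed intensity was divided by the 75th percentile over 43020 non-control spots and taken to log2. Spots with an outlier flag were left out, and repeated spots were averaged. The filter kept 27780 probes, those at or above the 20th percentile on at least 1 array and detected or compromised on at least 2. A probe not well above background on one side was set there to the lowest level well above background, or its own if higher, and the difference is then a lower bound. With 1 array per condition no test between conditions was run. The step that makes the calls was tried on simulated data only, which does not cover the spread between cultures. The members, gene lists and motifs were chosen with earlier results of these data known. Genes were named by this rule: all members, genes sharing a word of 16 bases with them, and the nearest well-measured gene on each side. The 5 most alike genes, Rif1 and the listed genes were named too. Outside this rule, Gm16381, Gm8587, Gm2099, Gm6566 and Gm6772 were named for their values in or near the cluster. Alternatives were normexp (offset 50), quantile normalization, the deposited ratios, outliers kept, no filter, untreated cells as comparator, a 4-fold threshold and 1 value per group of probes sharing a word. Python 3.11.15, pandas 2.3.3, numpy 2.4.6, matplotlib 3.10.9, R 4.3.3 and limma 3.58.1 were used. Promoters came from RefSeq (GRCm38.p6). A planned comparison of the proteins was not run, since protein sequences were not used here.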

Additional observations from a re-analysis of the deposited data

How the results depend on the processing

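All counts and medians of the members kept their direction under the alternatives tried. With untreated cells as comparator the median log2 difference of the members was 5.30 at 72 h and 5.16 at 48 h, above 4.46 and 4.34 against control siRNA, and 14 of 15 probes were then over 2-fold. The single probe over 2-fold for control siRNA over untreated cells became 0 with normexp, with the 4-fold threshold, and with 1 value for each group of probes that share a word. Normexp left 13 of 15 probes over 2-fold at both times, without Gm2042 and Gm10436, whose log2 differences were then 0.57 and 0.44 at 72 h and 0.64 and 0.42 at 48 h. With signals used as given they were 3.56 and 2.75 at 72 h. Quantile normalization left 14 at 48 h, where Gm10436 was at 0.93. Leaving out Gm2042 and Gm10436, an alternative chosen after seeing the data, gave medians of 4.46 and 4.39. No paired analysis was possible because a condition is represented by a single array. The number of arrays and, for Gm2042 and Gm10436, signal over background limit the precision.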
